A study of Mus musculus with 28 samples.

Results

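The dorsal striatum of mice heterozygous for an inactivated *Hdc* allele was compared with that of wild-type (WT) mice by RNA-seq. The comparison covered 3 heterozygous libraries, named 4b, 5b and 6b in the labels, and 2 WT libraries, named 1b and 2b, of the 28 libraries that the series holds from 4 brain regions and 3 genotypes. Levels are given as CPM, the counts of a gene relative to the size of its library after TMM scaling of the libraries, and a fold change is that of heterozygous over WT libraries. All genes above 1 CPM in at least 2 of these 5 libraries were kept, 13044 genes, whereas 14979 genes pass the same minimum over the whole series. The mice were adult males aged 2 to 3 months from an *Hdc*-knockout line backcrossed to C57Bl/6, in which the animal carries the allele in all its cells, on one chromosome in heterozygotes. No treatment was given to any group. Whether each library came from a separate animal is not stated for these samples, so p-values measure the spread between libraries, which may be technical in part. The *Hdc*-KO dorsal striatum, libraries 7b and 8b, carries the allele on both chromosomes and is given beside the comparison where it adds to it.

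Histidine decarboxylase, the product of *Hdc*, makes histamine from histidine. The neurons of the brain that hold the enzyme lie in the posterior hypothalamus, and their axons reach most regions, the striatum included. The dorsal striatum consists largely of GABAergic spiny projection neurons of the direct pathway, which carry the dopamine receptor D1, and of the indirect pathway, which carry D2, together with interneurons, astrocytes, microglia and oligodendrocytes. Oligodendrocytes wrap the axons that cross the striatum in myelin, a membrane built of a small set of structural proteins and of galactolipids.

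Counts on genes lay between 4170409 and 5150280 in the 5 libraries, and between 44.78% and 52.59% of the reads tallied fell on genes. Genes of the mitochondrial genome took from 31.93% of these counts in 4b to 48.81% in 1b, and the shares were 41.71% in 2b, 40.11% in 5b and 40.05% in 6b, so that each heterozygous library lay below both WT libraries. The spiny neuron genes *Ppp1r1b*, *Pde10a*, *Drd1*, *Drd2* and *Penk* were abundant in each library. The hypothalamic markers *Hcrt*, *Pmch*, *Oxt* and *Avp* had at most 4 counts in any of the 5. No marker that separates dorsal from ventral striatum was checked, so the dorsal label itself was not tested. Libraries within a group differed by more than sampling noise. In a chi-square test of their counts, the statistic per degree of freedom came to 7.84 for the WT pair and to 2.17 for 5b with 6b. It came to 12.41 and 13.29 for 4b with each of these. It took in all genes with at least 10 counts in the pair, those of the mitochondrial genome included, so differences in their share enter it. Library 4b stood apart in genes of ciliated ependymal cells. The 12 genes of that list summed to 54.6 CPM in 4b and to between 5.35 and 6.87 CPM in the other libraries of the comparison. Library 2b stood apart in genes of cortical excitatory neurons, with *Slc17a7*, the vesicular glutamate transporter of these cells, at 55.9 CPM and between 3.16 and 6.77 CPM in the other 4 libraries. For some of the results that rest on any of these libraries, the value without that library is given as well.

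Between heterozygous and WT dorsal striatum, 13 genes passed an adjusted p-value of 0.05, or 0.0997% of the genes tested. Of these, 9 were higher in heterozygous libraries (0.069% of the genes tested) and 4 were lower (0.0307%). The genes higher were *Pla2g4e*, *Hdc*, *Micall1*, *Rasgrf2*, *Dnah5*, *Spr*, *Fat1*, *Vwa5b1* and *Foxm1*, and the genes lower were *Malat1*, *Robo3*, *Jsrp1* and *Smg5*. Before adjustment, 1042 genes had a p-value under 0.05, 595 of them higher and 447 lower. The median log2 fold change over all genes was 0.00 and 6578 genes (50.4%) were above 0. In 1480 genes (11.3%) each heterozygous library lay above both WT libraries, and in 1376 (10.5%) each lay below. A call was thus far rarer than groups that did not overlap. With 3 libraries against 2, an exact two-sided permutation test on a single gene cannot go below p = 0.2, so the calls rest on a spread estimated over all genes and all 28 libraries. edgeR's quasi-likelihood test, in the place of its likelihood ratio test, called 3 genes, *Pla2g4e*, *Hdc* and *Micall1*, and the Wald test of DESeq2 called 4, these and *Malat1*. With 1 library left out, 4 genes were called without 4b, 4 without 1b, 23 without 5b, 16 without 6b and 75 without 2b.

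**Figure D1:**
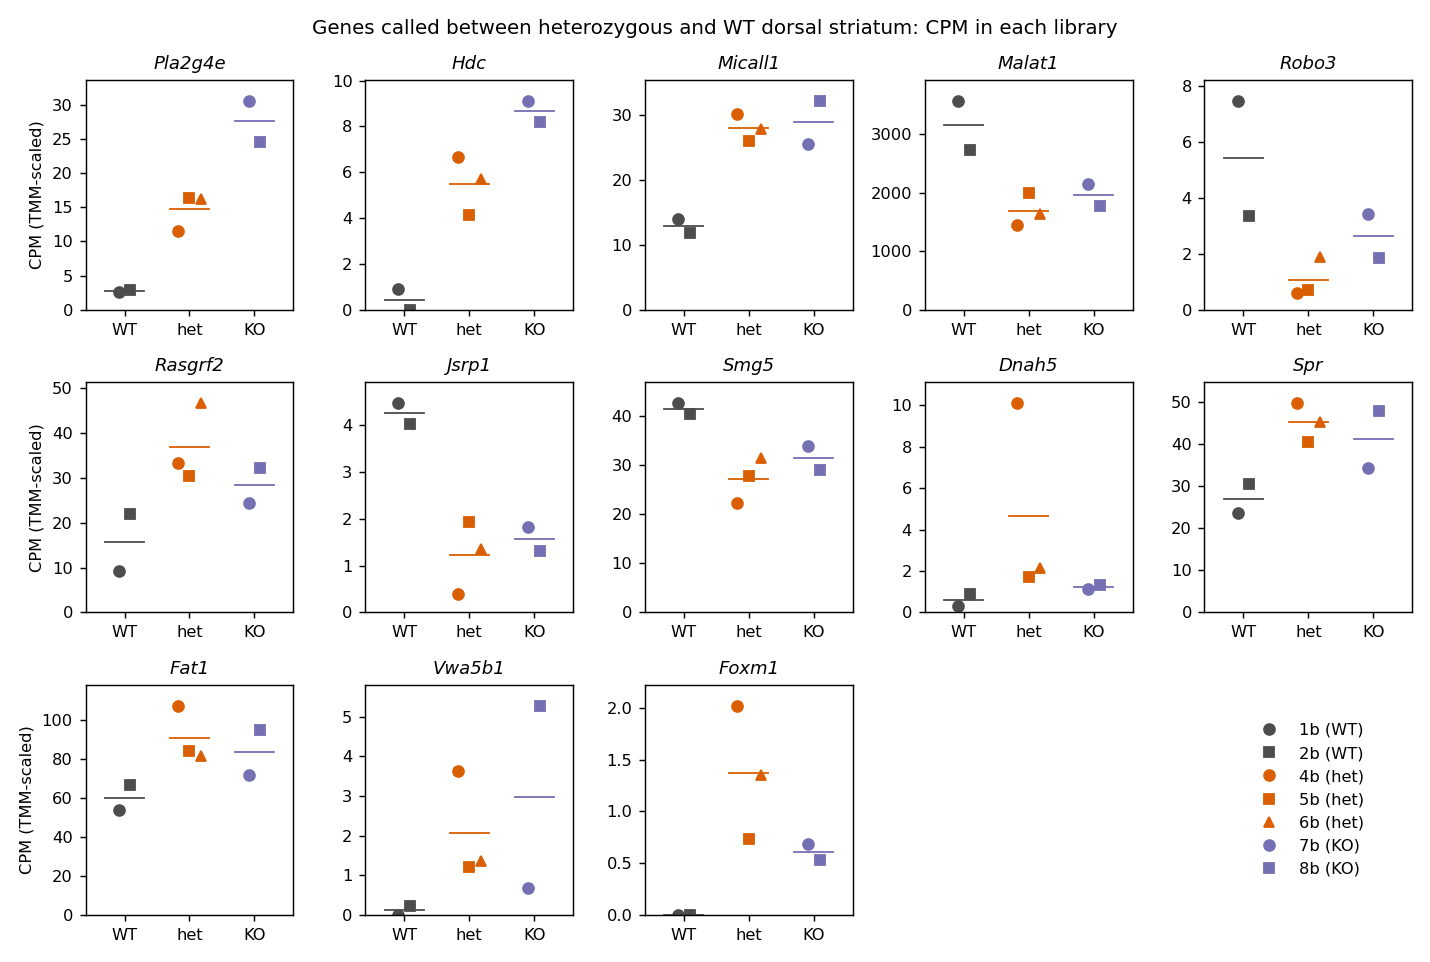
Each panel plots one called gene, with CPM on the vertical axis from 0, the libraries of WT, heterozygous (het) and *Hdc*-KO dorsal striatum as points and the group mean as a line. *Pla2g4e* lies near 3 CPM in WT, between 11.5 and 16.3 CPM in heterozygous and above 24 CPM in KO libraries, whereas the mean of *Dnah5* in heterozygous libraries is set by 4b.

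*Hdc* itself (ENSMUSG00000027360, chromosome 2 of GRCm38, 126593667 to 126619299, minus strand) was higher, not lower, in heterozygous dorsal striatum. It had 3 and 0 counts in WT libraries 1b and 2b and 33, 17 and 21 counts in 4b, 5b and 6b, or 0.895 and 0 against 6.67, 4.13 and 5.69 CPM. Each heterozygous library thus lay above both WT libraries, and the log2 fold change was 3.75 with a standard error of 0.86 (adjusted p = 3.79e-07). With 1b alone as WT the value was 2.6, and with 2b alone, which had no count, the fitted value was 7.63 and is no bound. *Hdc* was called in both fits. With 3 counts in all, the WT level is uncertain, and the ratio of the summed rates was 14.5 with a 95% counting interval from 4.76 to 71.9. The KO libraries had 40 and 31 counts (9.12 and 8.18 CPM). The difference of KO from heterozygous was a log2 fold change of 0.64 (adjusted p = 0.557). Counts were summed over all exons of the gene, so they do not show whether the part removed by the targeting was transcribed. They are therefore no test of the allele itself, though the dorsal striatum libraries labelled WT, heterozygous and KO did not overlap in CPM.

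The same was seen outside the hypothalamus but not in it. Heterozygous libraries had 28, 20 and 23 *Hdc* counts in the ventral striatum and 20 and 21 in the motor cortex, where WT libraries had 1, 6 and 0, and 0 counts. In the hypothalamus, where the gene is normally transcribed, the 3 heterozygous libraries were at 14.5, 21.7 and 15.1 CPM and the 3 WT libraries at 15.2, 19.0 and 16.9 CPM. These groups overlapped, with a log2 fold change of 0.00 (standard error 0.18). The heterozygous minus WT difference of *Hdc* was larger in the dorsal striatum than in the hypothalamus by 3.75 on the log2 scale (standard error 0.88, adjusted p = 1.39e-05 for the difference), and was 0.73 larger than in the ventral striatum (adjusted p = 1), where *Hdc* was called as well (3.02, adjusted p = 1.75e-07).

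**Figure D2:**
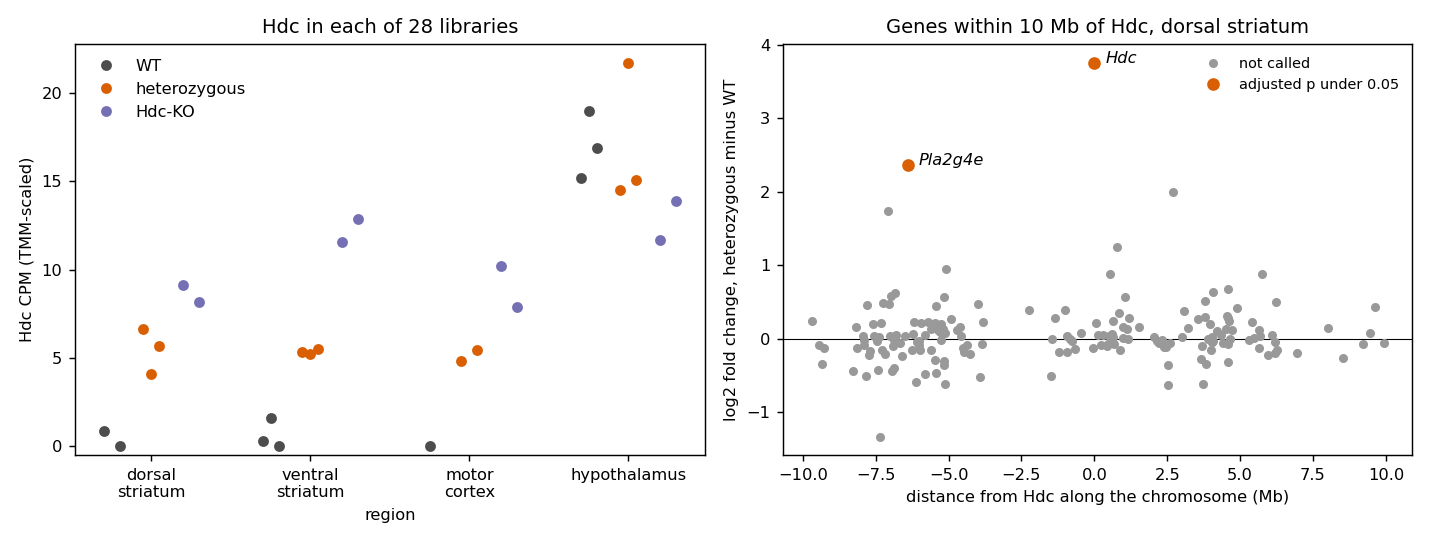
Left, *Hdc* in CPM in each of the 28 libraries by region and genotype; right, log2 fold change of heterozygous over WT dorsal striatum against distance from *Hdc* in megabases for the tested genes within 10 Mb. *Hdc* is near 0 in WT striatum and cortex but not in WT hypothalamus, and *Pla2g4e* is the only other called gene in the window.

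*Pla2g4e* (chromosome 2, 120166412 to 120245335, minus strand), a cytosolic phospholipase A2 family member that forms N-acyl-phosphatidylethanolamines, had the smallest p-value of the comparison. Its level was 2.69 and 2.92 CPM in WT libraries and 11.5, 16.3 and 16.2 CPM in heterozygous libraries. The groups were far apart, 2.80 ± 0.164 CPM (SD, n = 2) against 14.7 ± 2.74 CPM (SD, n = 3), and the log2 fold change was 2.36 with a standard error of 0.35 (adjusted p = 2.70e-10). The KO libraries were higher again, at 30.6 and 24.6 CPM, a log2 fold change of 0.93 over heterozygous (adjusted p = 0.00289). *Pla2g4e* was also called in the heterozygous ventral striatum (log2 fold change 2.08) and hypothalamus (1.60), and neither difference from the dorsal striatum passed the test (adjusted p = 1 and 0.906).

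*Pla2g4e* lies 6.40 Mb from *Hdc*. Of 321 other genes within 10 Mb of *Hdc*, 177 were tested, and 91 of these were higher and 86 lower in heterozygous libraries, with a median log2 fold change of 0.02 against 0.00 over all genes. *Pla2g4e* was the one gene called among them, where 0.0997% of all genes were. Next in p-value was *Slc30a4*, a zinc transporter 3.91 Mb from *Hdc* with an adjusted p of 0.234; it was picked after its value was seen.

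*Micall1* (chromosome 15, 79108898 to 79136900, plus strand) encodes a protein of recycling endosomes that binds Rab GTPases. It was at 14.0 and 11.9 CPM in WT libraries and at 30.1, 26.0 and 27.9 CPM in heterozygous libraries. The libraries of each group lay close together, and the log2 fold change was 1.13 (standard error 0.21, adjusted p = 8.50e-05). In KO dorsal striatum it was at 25.5 and 32.2 CPM, as high as in heterozygous libraries (log2 fold change of KO over heterozygous 0.03, standard error 0.17, adjusted p = 0.996). Its log2 fold change was -0.02 in the ventral striatum and 0.11 in the hypothalamus, but the difference of 1.15 from the ventral striatum (adjusted p = 0.0966) and that from the hypothalamus (adjusted p = 0.159) did not pass the test.

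*Pla2g4e*, *Hdc* and *Micall1* were the genes called under each of the 12 alternative fits tried for single genes, and their promoters are therefore shown, from RefSeq on GRCm38.p6. Each window of 300 bases runs 5′ to 3′ on the strand of its gene, from 250 bases before the annotated start to 50 after it. Capitals mark the GC box GGGCGG on either strand. The *Hdc* window is chr2:126618629-126618928 (minus strand), that of *Pla2g4e* is chr2:120245286-120245585 (minus strand) and that of *Micall1* is chr15:79108733-79109032 (plus strand).
*Hdc*: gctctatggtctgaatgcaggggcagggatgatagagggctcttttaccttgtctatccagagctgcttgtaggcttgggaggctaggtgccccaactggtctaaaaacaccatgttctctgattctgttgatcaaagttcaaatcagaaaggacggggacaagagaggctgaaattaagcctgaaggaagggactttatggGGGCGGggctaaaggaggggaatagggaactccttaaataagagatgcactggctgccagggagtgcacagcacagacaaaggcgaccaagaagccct
*Pla2g4e*: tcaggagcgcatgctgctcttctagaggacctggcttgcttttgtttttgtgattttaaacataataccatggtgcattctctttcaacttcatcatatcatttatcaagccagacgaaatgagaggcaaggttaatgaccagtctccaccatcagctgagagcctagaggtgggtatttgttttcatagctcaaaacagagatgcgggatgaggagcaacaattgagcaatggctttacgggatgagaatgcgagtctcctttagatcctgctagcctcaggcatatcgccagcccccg
*Micall1*: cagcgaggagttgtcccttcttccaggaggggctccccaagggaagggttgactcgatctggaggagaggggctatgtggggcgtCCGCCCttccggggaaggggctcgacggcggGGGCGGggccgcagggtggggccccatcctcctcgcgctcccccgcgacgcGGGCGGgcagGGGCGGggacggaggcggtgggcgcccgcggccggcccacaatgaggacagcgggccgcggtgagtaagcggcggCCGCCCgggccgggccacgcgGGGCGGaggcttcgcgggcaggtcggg

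The GC box occurred once in the *Hdc* window, 6 times in that of *Micall1* and not in that of *Pla2g4e*, and 35.7% of all 32851 promoter windows hold it, or 62.0% of the windows of the genes tested. Neither the TATA motif TATAAA nor the cAMP response element TGACGTCA occurred in the 3 windows on either strand. TATAAA is in 13.6% of all windows and in 7.01% of those of the genes tested, and TGACGTCA in 1.79% and 3.02%. Of the 13 called genes, 11 had a window in the table, and 4 of these (36.4%) held GGGCGG, against 69.4% of the tested genes with a window. These matches describe the letters of the windows and not sites in use.

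Other genes called higher changed less or rested on fewer reads. *Spr*, sepiapterin reductase of the synthesis of tetrahydrobiopterin, the cofactor that dopamine and serotonin synthesis need, was at 23.6 and 30.5 CPM in WT and at 49.7, 40.6 and 45.2 CPM in heterozygous libraries (log2 fold change 0.73, standard error 0.18, adjusted p = 0.0349). *Fat1*, an atypical cadherin, was at 53.7 and 66.7 CPM against 107, 83.9 and 81.5 CPM (0.59, standard error 0.14, adjusted p = 0.0349). *Rasgrf2*, a calcium-dependent exchange factor of Ras and Rac, was at 9.25 and 22 CPM against 33.4, 30.4 and 46.6 CPM (1.20, standard error 0.28, adjusted p = 0.0331). In each of these the heterozygous libraries lay above both WT libraries, and so did the KO libraries, at 34.4 and 47.8 CPM for *Spr*, 71.8 and 95 CPM for *Fat1* and 24.4 and 32.2 CPM for *Rasgrf2*. The 3 calls were lost without 4b and without 1b, and those of *Spr* and *Rasgrf2* also without 6b. The highest adjusted p over the alternatives was 0.776 for *Spr*, 0.816 for *Fat1* and 0.925 for *Rasgrf2*.

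*Dnah5*, a dynein heavy chain of motile cilia, was at 0.298 and 0.898 CPM in WT libraries and at 10.1, 1.70 and 2.17 CPM in heterozygous libraries. Library 4b carried most of this difference (log2 fold change 2.87, adjusted p = 0.0349, and 1.55 without 4b, where the call was lost, as it was without 1b and without 2b). The ependymal genes *Foxj1* (7.28 CPM in 4b, 0.973 and 1.35 CPM in 5b and 6b, 1.19 and 1.12 CPM in WT) and *Hydin* (13.8 CPM in 4b, 0.973 and 0.271 CPM in 5b and 6b) were high in the same library. *Foxm1*, a transcription factor of dividing cells, had no count in WT and 10, 3 and 5 counts in 4b, 5b and 6b, which makes it at least 1.74-fold higher if each WT library is set to a floor of 3 counts (adjusted p = 0.046). *Vwa5b1* had 0 and 1 counts in WT and 18, 5 and 5 counts in heterozygous libraries, with a ratio of 17.1 and a 95% counting interval from 2.83 to 701 (adjusted p = 0.0396). Both calls were lost without 4b, without 1b and without 2b, and that of *Foxm1* also without 6b.

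Of the 4 genes called lower, *Malat1*, a long noncoding RNA kept in the nucleus, was by far the most abundant. It was at 3571 and 2734 CPM in WT libraries and at 1444, 1992 and 1630 CPM in heterozygous libraries, and its log2 fold change was -0.90 with a standard error of 0.20 (adjusted p = 0.00887). The KO libraries were at 2157 and 1779 CPM, below both WT libraries. *Smg5*, a factor of nonsense-mediated mRNA decay, was at 42.7 and 40.4 CPM against 22.2, 27.7 and 31.4 CPM (-0.63, standard error 0.15, adjusted p = 0.0349). *Robo3*, an axon guidance receptor, was at 7.46 and 3.37 CPM against 0.607, 0.730 and 1.90 CPM (-2.33, standard error 0.56, adjusted p = 0.0273). *Jsrp1*, known from the sarcoplasmic reticulum of muscle, was at 4.48 and 4.04 CPM against 0.404, 1.95 and 1.35 CPM (-1.82, standard error 0.46, adjusted p = 0.0349). In all 4 each heterozygous library lay below both WT libraries. Each of these calls was lost without 4b and without 1b, those of *Smg5* and *Robo3* also without 5b, and those of *Smg5* and *Jsrp1* also without 2b. That of *Jsrp1* was lost without 6b as well. The calls came with a highest adjusted p over the alternatives of 0.578 for *Malat1*, 0.536 for *Smg5*, 0.734 for *Robo3* and 0.668 for *Jsrp1*.

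The 10 genes next in p-value did not pass the threshold (adjusted p from 0.0566 to 0.0863). Among those with lower levels in heterozygous libraries, *Mir124a-1hg*, the host transcript of a neuronal microRNA, was at 138 and 139 CPM in WT and at 98.1, 74.9 and 69.9 CPM in heterozygous libraries (log2 fold change -0.77). The protocadherin *Pcdh17* was at 311 and 251 CPM against 179, 172 and 151 CPM (-0.75). The nuclear receptor *Nr4a2* had a log2 fold change of -3.17 that came from 2b, at 25.8 CPM against 1.49 CPM in 1b and 2.43, 1.46 and 0.542 CPM in heterozygous libraries. Without 2b the value for *Nr4a2* was 0.02. Those with higher levels were *Tmeff2* (0.63), *Prr36* (1.09), the lysosomal sulfatase *Galns* (1.30), the protocadherin *Pcdh19* (0.86), the ribosomal protein gene *Rps3a1* (0.89, uncertain because near-identical copies could share its reads), the mitochondrial dicarboxylate carrier *Slc25a10* (1.22) and the metalloprotease *Adamts4* (0.80), which oligodendrocytes also express. In each of these the heterozygous libraries lay above both WT libraries.

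Oligodendrocyte genes had higher values in heterozygous than in WT dorsal striatum, together but without a call. Of 47 genes in lists of structural myelin proteins, myelin lipid enzymes, other mature oligodendrocyte genes and lineage transcription factors, 46 had a log2 fold change above 0, where 50.4% of all genes did. In 35 of the 47 each heterozygous library lay above both WT libraries, where 11.3% of all genes did, and in none did each lie below. The median log2 fold change was 0.46 against 0.00 over all genes. None of the 47 passed an adjusted p of 0.05, against 0.0997% of all genes, and 28 were higher and 1 lower at an unadjusted p under 0.05. The genes of the lists share cells, libraries and scaling and are not independent of each other. In bulk tissue, more cells of a type and more RNA per cell, or fewer and less, cannot be told apart.

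The structural myelin proteins were at the head of these lists in level. *Mbp*, myelin basic protein, was at 1407 and 1137 CPM in WT libraries and at 1728, 1627 and 1668 CPM in heterozygous libraries (log2 fold change 0.40, standard error 0.20, adjusted p = 0.618). *Mobp*, myelin-associated oligodendrocyte basic protein, was at 154 and 133 CPM against 242, 218 and 207 CPM and had the smallest p-value of the 47 (0.63, standard error 0.17, adjusted p = 0.0863). For *Cnp*, an enzyme of the myelin sheath, 163 and 157 CPM stood against 245, 234 and 247 CPM (0.59, adjusted p = 0.16). For *Cldn11*, the tight junction protein of myelin, 104 and 98.3 CPM stood against 179, 142 and 143 CPM (0.61, adjusted p = 0.19). In these 4 genes the groups did not overlap. All 10 genes of the list were above 0, between 0.32 and 0.64, with a median of 0.49.

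The enzymes of myelin lipids had a median of 0.55, and all 7 were above 0. *Fa2h*, which hydroxylates the fatty acids of galactolipids, was at 32.8 and 26.3 CPM in WT libraries and at 44.3, 46.2 and 44.4 CPM in heterozygous libraries (log2 fold change 0.61, adjusted p = 0.227). *Aspa*, which releases acetate from N-acetylaspartate, was at 7.46 and 5.84 CPM against 16.8, 10.9 and 10.6 CPM (0.96, adjusted p = 0.322). *Ugt8a*, which adds galactose to ceramide, was at 31.0 and 32.1 CPM against 58.2, 37.5 and 43.1 CPM (0.55, adjusted p = 0.508). Library 4b was the highest of the heterozygous libraries for *Aspa* and *Ugt8a*. Without 4b the median of the list was 0.35.

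All 21 other genes of mature oligodendrocytes were above 0, with a median of 0.46. *Tmem88b* was at 29.6 and 28.1 CPM in WT libraries and at 51.4, 46.9 and 46.3 CPM in heterozygous libraries (log2 fold change 0.75, adjusted p = 0.209). *Ndrg1*, needed for myelin in peripheral nerves, was at 76.7 and 76.8 CPM against 110, 110 and 103 CPM (0.48, adjusted p = 0.443). *Enpp2*, autotaxin, was at 118 and 106 CPM against 165, 148 and 183 CPM (0.56, adjusted p = 0.746), but it is also a choroid plexus gene and reached 997 CPM in KO library 8b, where the choroid plexus marker *Ttr* was at 2722 CPM. Of the 9 transcription factors, 8 were above 0 with a median of 0.48 (0.30 without 2b). *Myrf*, which drives myelin genes, was at 62.1 and 53.9 CPM against 90, 75.4 and 75.5 CPM (0.48, adjusted p = 0.431). *Sox10* was at 27.2 and 26.3 CPM against 40.2, 38.9 and 32.5 CPM (0.48, adjusted p = 0.505), and *Olig2* at 16.4 and 14.8 CPM against 29.3, 21.4 and 17.6 CPM (0.56, adjusted p = 0.443). The exception was *Nkx6-2*, which had at most 2.25 CPM in the 5 libraries and a log2 fold change of -1.44 (adjusted p = 0.612).

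**Figure D3:**
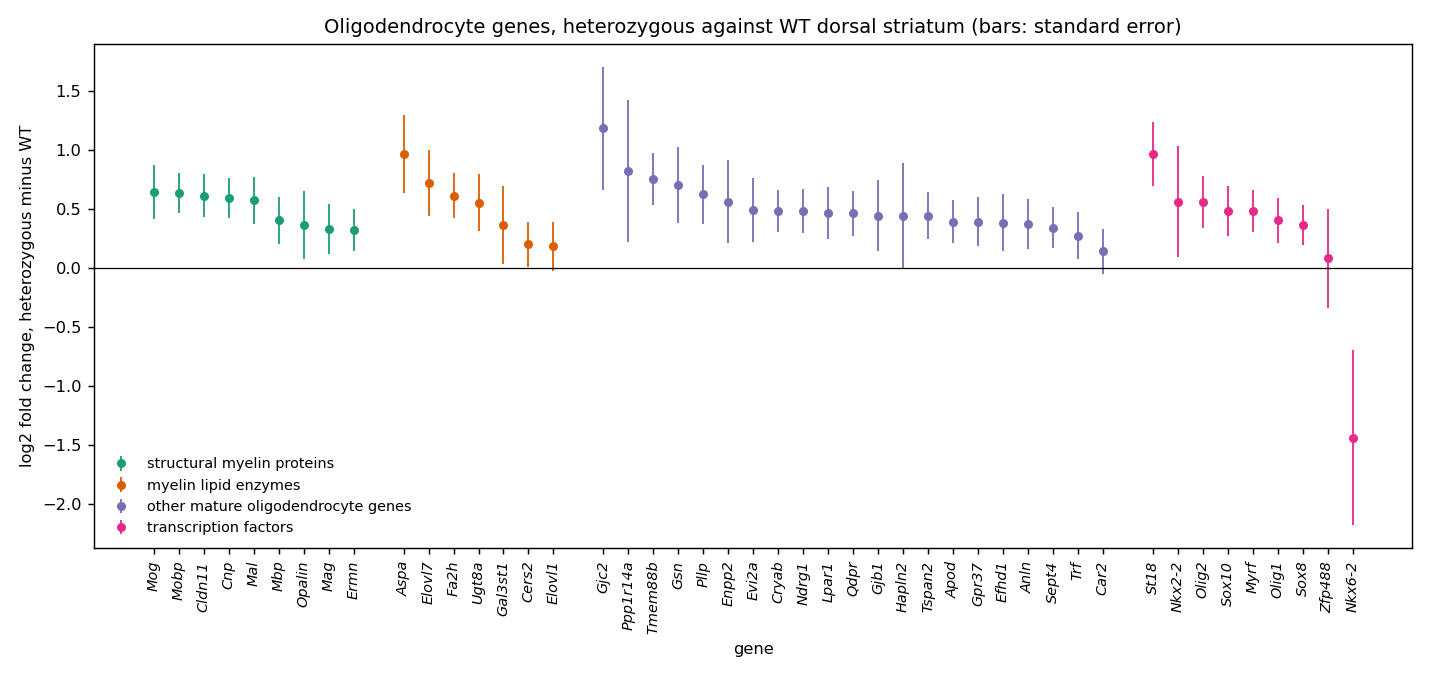
Log2 fold change of heterozygous over WT dorsal striatum for 46 of the 47 oligodendrocyte genes by role, with standard errors as bars. All but *Nkx6-2* lie above 0, between 0.08 and 1.18, and none passed the adjusted threshold.

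The values of this group varied little with the processing, whereas the calls within it did. Over the 12 alternatives, the median of the 47 genes lay between 0.38 (without 2b) and 0.67 (scaling by library size alone, which moved the median of all genes to 0.19). *Mobp* and *Cnp* passed the threshold when the 5 libraries were fitted alone, when the 7 dorsal striatum libraries were, and when libraries were scaled by size alone, with adjusted p-values between 0.00814 and 0.536 for *Mobp* and between 0.00859 and 0.74 for *Cnp* over the alternatives.

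Precursors and the axonal side of myelin showed less. The 10 genes of oligodendrocyte precursors and early commitment had a median of 0.27, with 9 above 0, and in 3 the heterozygous libraries lay above both WT libraries, where 11.3% of all genes did. *Bcas1*, a marker of newly formed oligodendrocytes, was at 155 and 119 CPM in WT libraries and at 208, 179 and 176 CPM in heterozygous libraries (0.45, adjusted p = 0.518). *Pdgfra*, the receptor that defines precursors, was at 28.4 and 33.9 CPM against 32.1, 31.9 and 36.3 CPM, with overlapping groups. Of 16 genes of the node of Ranvier and the paranode, 7 were above 0 and 9 below, with a median of -0.07 (0.13 under scaling by library size alone). The juxtaparanodal *Cntn2*, which oligodendrocytes express as well as axons, was at 67.2 and 63.5 CPM against 106, 85.1 and 84.8 CPM (0.50, adjusted p = 0.28). The 18 tested genes of cholesterol synthesis had a median of 0.04 and the 12 of iron handling one of 0.05, and none of either had an unadjusted p under 0.05.

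Side by side with other regions, the group of 47 genes had lower medians there. The median heterozygous minus WT log2 fold change was -0.16 in the ventral striatum and 0.12 in the hypothalamus. It was -0.08 in the motor cortex, where WT has 1 library. In the ventral striatum 9 of the 47 genes were above 0, where 6601 of all 13044 genes were. In the hypothalamus 34 were, where 6775 of all 13044 genes were, and in the motor cortex 18, where 6822 were. The difference of differences contains the dorsal values, which were above 0 in 46 of the 47 genes, so its sign is no separate result. For the ventral striatum it was above 0 in 45 of the 47 genes (median 0.59), where 6603 of all 13044 genes were. For the hypothalamus it was above 0 in 43 (median 0.37), where 6549 of all 13044 genes were. No gene of the 47 passed the test of this difference. Over all genes, none was called between dorsal and ventral striatum (0%; 580 genes at an unadjusted p under 0.05, and none called by edgeR's quasi-likelihood test either), and 2 genes, *Hdc* among them, were called between dorsal striatum and hypothalamus (0.0153%). In KO dorsal striatum, which shares its WT libraries with this comparison, the median of the 47 genes was 0.70 and 9 of them were called, against 0.383% of all genes between KO and WT. Between KO and heterozygous libraries, where 0.406% of all genes were called, the only called member was *Enpp2* and the median was 0.18.

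**Figure D4:**
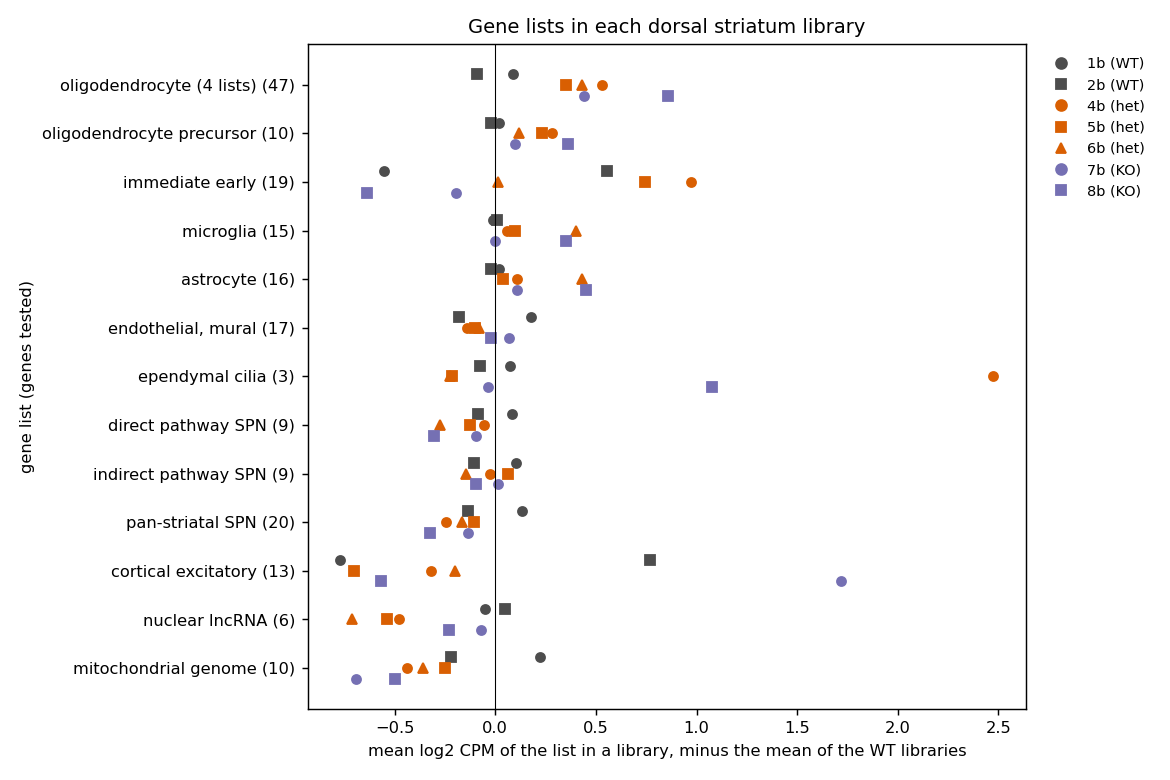
Mean log2 CPM of each gene list in each dorsal striatum library, as the difference from the mean of the WT libraries; points are libraries, coloured by genotype, and the number of genes tested is in parentheses. The 3 heterozygous libraries lie above both WT libraries for the oligodendrocyte lists and below both for the nuclear long noncoding RNAs, while 4b is the one heterozygous library high for ependymal cilia and 2b and 7b are high for cortical excitatory neurons.

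Immediate early genes, which neurons transcribe within minutes of activity, differed widely among libraries of the same group. Of 19 tested, 16 had a log2 fold change above 0 and the median was 0.63, in 3 the heterozygous libraries lay above both WT libraries, where 11.3% of all genes did, and none was called. *Fosb* was at 8.06 and 12.1 CPM in WT libraries 1b and 2b and at 29.5, 28.2 and 13.0 CPM in 4b, 5b and 6b (log2 fold change 1.22, standard error 0.34, adjusted p = 0.122). *Dusp1*, a phosphatase that ends MAP kinase signals, was at 5.67 and 13.9 CPM against 33.0, 20.7 and 13.5 CPM (1.17, adjusted p = 0.237). *Nr4a1* was at 34.9 and 133 CPM against 257, 233 and 66.1 CPM (1.14, adjusted p = 0.493), and *Egr1* was at 769 and 950 CPM against 1225, 1339 and 701 CPM (0.34, adjusted p = 0.894). Summed over the list, 4b and 5b were the highest (2285 and 2351 CPM), 2b lay between (1707 CPM), and 6b and 1b were the lowest (1319 and 1277 CPM). The median of the list was 0.35 without 1b, 0.37 without 4b and 1.21 without 2b. In KO dorsal striatum the median against WT was -0.64. Against heterozygous libraries it was -1.25, with 9 of the 19 genes called, where 0.406% of all genes were. The heterozygous minus WT median was 0.23 in the ventral striatum, with 15 of the 19 genes above 0. In the hypothalamus it was 0.43, with all 19 above 0, where 6775 of all 13044 genes were. There 2 of the 19 were called, against 11 of all 13044 genes. The median was 0.10 in the motor cortex, where WT has 1 library. Of the 13 genes of the glucocorticoid and stress response, 10 were above 0 with a median of 0.12, and none had an unadjusted p under 0.05. That median was -0.06 without 1b, 0.06 without 5b and 0.42 without 2b. The 17 clock genes had a median of 0.02 and the 10 heat shock chaperones one of 0.00.

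**Figure D5:**
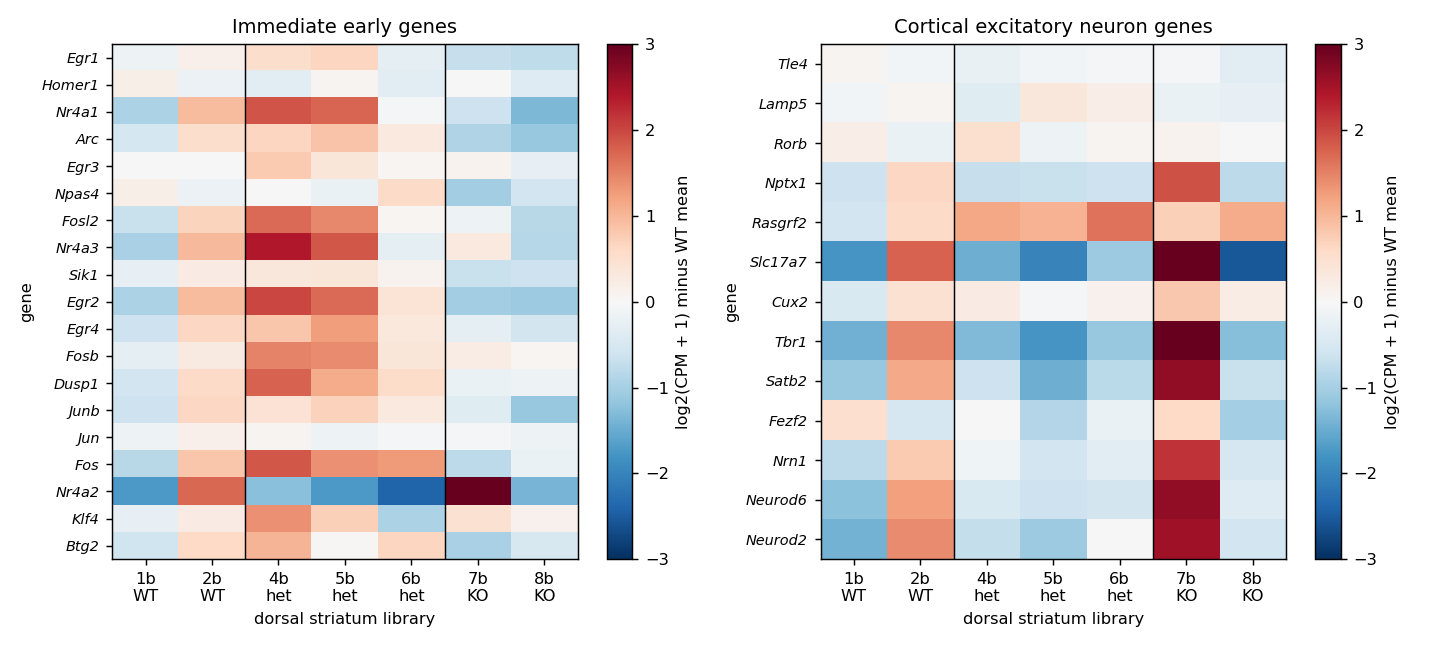
Log2(CPM + 1) of each gene minus its WT mean, in colour from -3 to 3, for immediate early genes and for cortical excitatory neuron genes in the 7 dorsal striatum libraries. The colours follow libraries: 4b and 5b are high for most immediate early genes, and 2b and 7b for *Slc17a7*, *Tbr1* and *Neurod6*.

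Long noncoding RNAs of the nucleus had lower values in heterozygous libraries. Of the 6 tested, 5 were below 0 with a median of -0.61, and in 4 each heterozygous library lay below both WT libraries, where 10.5% of all genes did. Apart from *Malat1*, which was called, *Meg3*, an imprinted transcript, was at 41.2 and 53.4 CPM in WT and at 20.6, 29.4 and 29.2 CPM in heterozygous libraries (log2 fold change -0.85, adjusted p = 0.0872), and *Snhg11* was at 1448 and 1282 CPM against 1109, 888 and 726 CPM (-0.59, adjusted p = 0.196). *Neat1*, another nuclear RNA, overlapped between the groups (0.05). The median of this list was also below 0 in the other regions. It was -0.41 in the ventral striatum, -0.38 in the hypothalamus and -0.56 in the motor cortex. In the ventral striatum 1 of the 6 was called, against 6 of all 13044 genes. Between KO and heterozygous dorsal striatum all 6 were above 0, where 6384 of all 13044 genes were, with a median of 0.385 and no call. The 10 tested protein-coding genes of the mitochondrial genome were all below 0 with a median of -0.38. *mt-Nd2* was at 9053 and 6480 CPM in WT libraries and at 5026, 5654 and 5710 CPM in heterozygous libraries (-0.51, adjusted p = 0.297). Library 1b was the highest for it, as it was for the share of mitochondrial counts, and without 1b the median of the list was -0.14. The 23 nuclear subunits of the respiratory chain had a median of 0.01.

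Genes of striatal neurons differed by small amounts between the groups, and those of spiny neurons mostly lay below 0. Of 20 genes that all spiny projection neurons express, 19 were below 0, where 6466 of all 13044 genes were. Their median was only -0.18 (0.01 under scaling by library size alone), and none had an unadjusted p under 0.05. In KO dorsal striatum, which shares its WT libraries with this comparison, their median against WT was -0.256. There none of the 20 was above 0, where 6294 of all 13044 genes were. *Ppp1r1b*, which encodes DARPP-32, was at 1239 and 1041 CPM in WT libraries and at 745, 1025 and 1004 CPM in heterozygous libraries (log2 fold change -0.30, adjusted p = 0.8). The 9 direct pathway genes had a median of -0.20 (-0.01 under scaling by library size alone and -0.06 without 1b), with *Drd1* at 291 and 252 CPM against 222, 263 and 225 CPM and *Tac1*, the precursor of substance P, at 73.1 and 70.5 CPM against 60.2, 58.6 and 52.0 CPM (adjusted p = 0.842). The 9 indirect pathway genes had a median of -0.03 (0.15 under scaling by library size alone), with *Drd2* at 732 and 518 CPM against 628, 590 and 523 CPM and *Penk*, proenkephalin, at 1961 and 1930 CPM against 1740, 2041 and 1846 CPM. The groups overlapped for *Drd1*, *Drd2* and *Penk*. The 12 genes of interneurons had a median of 0.16, and *Npy* and *Sst* overlapped between the groups. For receptors of glutamate and GABA, 12 of 18 genes were below 0 with a median of -0.04, and for opioid, cannabinoid and metabotropic glutamate receptors 8 of 12 were, with a median of -0.06, both above 0 under scaling by library size alone (0.14 and 0.13). *Cnr1*, the cannabinoid receptor, had a log2 fold change of -0.83 (adjusted p = 0.16) that rested on 1b, at 1077 CPM, whereas 2b was at 444 CPM and the heterozygous libraries were at 349, 429 and 505 CPM.

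Cortical excitatory neuron genes had a median of -0.82 over 13 genes, which turned to 0.30 without 2b. The 14 genes of the list summed to 567 CPM in 2b and to between 440 and 490 CPM in the other 4 libraries. *Slc17a7* was at 3.88 and 55.9 CPM in WT libraries and at 5.05, 3.16 and 6.77 CPM in heterozygous libraries, and *Tbr1*, a transcription factor of deep cortical layers, was at 1.79 and 19.5 CPM against 2.02, 1.22 and 2.44 CPM. KO library 7b was higher still, at 177 CPM for *Slc17a7*. The called *Rasgrf2* belongs to this list by its role in the upper layers, yet it was lowest in 1b and highest in 6b.

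Genes of the histamine pathway other than *Hdc* gave no call. *Hrh3*, the receptor that histamine neurons and spiny neurons carry, was at 160 and 167 CPM in WT libraries and at 159, 138 and 138 CPM in heterozygous libraries, a log2 fold change of -0.17 (adjusted p = 0.868; 0.01 under scaling by library size alone). *Hnmt*, which methylates histamine, was at 9.25 and 11.7 CPM against 6.47, 6.81 and 11.9 CPM and overlapped. Over the 9 genes tested, *Hdc* included, 4 were above and 5 below 0, and the 12 of dopamine signalling had a median of -0.09 (0.11 under scaling by library size alone).

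Of the other cells of the tissue, microglia genes had a median of 0.22, with 13 of 15 above 0, and one of 0.08 without 6b. They summed to 433 CPM in 6b and to between 335 and 371 CPM in the other 4 libraries. *C4b*, a complement component, was at 4.18 and 6.29 CPM in WT and at 13.9, 6.08 and 11.1 CPM in heterozygous libraries (0.97, adjusted p = 0.443). Astrocyte genes had a median of 0.04 (11 of 16 above 0). *Gfap*, their intermediate filament, was at 9.55 and 15.0 CPM against 21.2, 11.4 and 36.3 CPM and overlapped, with 6b highest. Endothelial and mural genes had a median of -0.14 (0.05 under scaling by library size alone; 6 of 17 above 0), blood cell genes one of -0.04 (0.14 under that scaling), and collagen genes of the meninges one of 0.04. The 10 genes of septum, pallidum and thalamus had a median of 0.13, which was -0.06 without 6b, -0.04 without 1b and 0.48 without 2b. In 2 of them each heterozygous library lay above both WT libraries, where 11.3% of all genes did. Among choroid plexus genes, 6 of 13 were tested, and the 13 summed to 77.2 CPM in 6b and to between 5.37 and 23.1 CPM in the other 4. *Ttr* was at 0 and 3.14 CPM in WT and at 0.404, 4.86 and 53.9 CPM in heterozygous libraries, with *Folr1* at most at 0.404 CPM. The 3 tested of 12 ependymal genes were high in 4b alone. The part of these cells in the values of the other lists was not tested. The median of the oligodendrocyte genes was 0.40 or more without 4b as well as without 6b, and 0.38 without 2b. Leaving out 1 library is no test of that part, since the other libraries can hold such cells too.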

How the data were processed

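RNA-seq counts per gene from 28 libraries of dissected mouse brain tissue were deposited by the authors, unnormalised. Per the submitters' processing notes, Trimmomatic 0.32, Bowtie2 2.2.3, STAR 2.3.1z8, SAMtools 0.1.19 and HTSeq 0.6.1p1 were used. cDNA was amplified from a small amount of total RNA. The strand setting of the counting is not given in the sources used here, so reads of a gene and its antisense partner cannot be told apart. Lines that name no gene stayed out of library sizes, which left between 44.78% and 52.59% of the reads tallied in the compared libraries.

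The minimum for a gene was more than 1 CPM in 2 or more of the 5 compared libraries. Libraries were scaled by TMM, and a model with 1 term per region and genotype was fitted to all 28 libraries in edgeR 4.0.16 (R 4.3.3) and tested by likelihood ratio, two-sided, with Benjamini-Hochberg adjustment over 13044 genes. A gene with an adjusted p-value under 0.05 is called. Region contrasts are differences of 2 such log2 fold changes. Alternatives were the quasi-likelihood test, the Wald test and size factors of DESeq2 1.42.0, scaling by library size alone or by nuclear library size alone, other filters, fits of 5 or 7 libraries, and leaving out each library. The scaling by nuclear library size was added after the data were seen. Genes named are those called, the next 10 by p-value and members of the lists. The genes, lists and tests were chosen with earlier results of these data known, so no p-value is given for a list. On simulated counts for this comparison with 13044 genes, the fit called 25 of 67 genes changed 1.5-fold and 58 of 67 changed 2-fold. It called 66 of 66 genes changed 4-fold and 5 of 12844 unchanged genes. The changed genes were drawn from those above a minimum mean count. The simulated spread followed the level of a gene alone, and no simulated library differed in tissue make-up as 4b and 2b did. These shares therefore do not cover genes with few counts or differences between single libraries. A few items are not reported here. Intervals cover counting error only.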

Additional observations from a re-analysis of the deposited data

Results flagged for a closer look

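For *Hdc*, the heterozygous minus WT difference was not the same in dorsal striatum and hypothalamus by the test of the difference itself. In the likelihood ratio fit it was 3.75 larger in the dorsal striatum on the log2 scale (standard error 0.88, adjusted p = 1.39e-05), with the levels given above. The groups did not overlap in the dorsal striatum and did so in the hypothalamus. The quasi-likelihood test did not call *Hdc* for this difference, nor did the fit without 2b.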

How the results depend on the processing

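The 13 calls depended on the processing. The quasi-likelihood test called 3 (3 higher, 0 lower), the Wald test of DESeq2 4 (3 higher, 1 lower), scaling by library size alone 63 (59 higher), and the 5 libraries fitted alone 24 (11 lower). Leaving out 1 library gave from 4 to 75 calls, 3 to 34 higher and 1 to 41 lower. The fit without 2b, where 1b alone stands for WT and is assumed to vary like the other groups, gave the highest of these. Size factors of DESeq2 and scaling by nuclear library size alone each called the same 13 genes. Scaling by library size alone moved the median of all genes to 0.19. Differences between dorsal and ventral striatum numbered 1 under scaling by library size alone and 0 to 19 with 1 library left out. Those between dorsal striatum and hypothalamus numbered 0 by the quasi-likelihood test (where *Hdc* was lost), 5 under scaling by library size alone and 1 to 24 with 1 library left out.

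The sign of 15 values turned, none of them called. Without 2b the log2 fold change of *Nr4a2* was 0.02, of *Slc17a7* 0.36, of *Tbr1* 0.08 and of *Cck* 0.19, where without 1b they were -4.07, -3.48, -3.35 and -2.15. Without 1b that of *Pdgfra* was -0.03, of *Eya1* 0.01, of *Drd2* 0.16, of *Rgs4* 0.08 and of *Homer1* 0.00, where without 2b they were 0.24, -1.43, -0.33, -0.76 and -0.35. Scaled by library size alone, that of *Drd2* was 0.10, of *Penk* 0.13, of *Arpp21* 0.14, of *Homer1* 0.01 and of *Hrh3* 0.01, and that of *Arpp21* was 0.04 without 6b and -0.11 without 5b. Of the other values of named genes, 809 kept direction and side of the threshold, 49 passed it newly and 63 no longer passed. Except where the construction of an alternative shows it, the cause was not tested. No paired analysis was possible for the dorsal striatum because its WT and heterozygous libraries share no number in the labels. The libraries of different regions do share numbers. Correlations of the deviations from the group means lay between -0.03 and 0.05 for same-numbered libraries. The highest with a library of another number lay between -0.01 and 0.03. Counting noise over all genes enters these values, so they cannot show whether a number stands for a single animal. The labels do not explain the number, and it was not used as a pairing in the main fit. With the number as a replicate block, added after the data were seen, 0 genes differed between dorsal and ventral striatum and 1, *Hdc*, between dorsal striatum and hypothalamus. With 3 libraries against 2 at these depths, changes of 1.5-fold were mostly missed in simulated counts.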
